A study of Homo sapiens with 6 samples.

Results

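The 10 genes described here, ATF4, DDIT3, TRIB3, CHAC1, SESN2, DDIT4, PPP1R15A, CEBPB, VLDLR and ASNS, belong to the arm of the integrated stress response that runs through the transcription factors ATF4 and CHOP. They were chosen by name from a table of 17687 genes, and the choice was made with their values in all libraries already known. Their levels, their fold changes and whether these passed the threshold used for all genes are therefore given as a description, with no p-value, and support nothing. All 10 were in the table and all 10 were among the 14005 genes that passed the filter on low counts, with between 99 and 18367 expected counts in a library. RNA was sequenced from KHM-5M, an established cell line of anaplastic thyroid cancer. The 3 groups had 2 libraries each. The control group received PBS, the SS group received sodium selenite (SS), and the SS+NAC group received SS together with N-acetylcysteine (NAC), a thiol compound used as an antioxidant and cysteine donor. All 6 libraries came from the same line. The methods of the study call the libraries of a group biological replicates, and p-values measure the spread between them. No group received NAC alone, so an effect of NAC by itself and an effect of NAC on the response to SS cannot be told apart.

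The integrated stress response starts when a kinase phosphorylates the translation initiation factor eIF2. General protein synthesis then falls, while the mRNA of ATF4 is translated more efficiently because of short upstream reading frames. ATF4 protein binds with C/EBP family partners to genes of amino acid supply, redox balance and growth control, and it induces CHOP, the product of DDIT3. In cancer cells the response is known both for helping cells through shortage of amino acids and for promoting cell death when stress persists. Much of the regulation of ATF4 acts on translation, which RNA levels do not show.

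The libraries held between 17645545 and 23810056 expected counts. The spread between replicates, as a biological coefficient of variation, was 6.74% over all tested genes. It was uneven between groups, with a chi-square per degree of freedom of 3.10 in control, 7.35 in SS and 12.2 in SS+NAC. In the SS libraries the fold changes followed transcript length over all genes. The Spearman correlation of log2 fold change and effective length, over 13935 genes that are not independent replicates, was -0.69 for SS against control, -0.64 for SS against SS+NAC and -0.04 for SS+NAC against control. Short transcripts were higher and long transcripts lower in SS. Results of the comparisons that hold the SS libraries are therefore also given from a fit with a length offset, which removes a smooth trend of each library on transcript length. The part of this trend in each gene's change was not tested. Levels in CPM are counts brought to a common scale by the library total multiplied by the TMM scaling factor of each library. The thyroid transcription factor PAX8 had 269 CPM in control and HHEX had 24.6 CPM. TG, the gene of thyroglobulin, had 1.12 CPM, and NKX2-1 had 0.196 CPM, so that these thyroid markers were near 0. The 5 epithelial markers of the list, led by KRT8 and KRT18, summed to 1715 to 1794 CPM in control, 2184 to 2654 CPM in SS and 1339 to 1698 CPM in SS+NAC, and 2 of them, KRT8 and KRT18, were called higher in SS against SS+NAC with and without the length offset. The 5 mesenchymal markers, among them VIM, summed to 10992 to 11438 CPM, 12222 to 12282 CPM and 12504 to 12978 CPM, with 1 called higher and 4 lower in SS against SS+NAC, or 1 and 1 with the offset. In SS against control 2 epithelial markers were called higher and 0 lower, or 0 and 0 with the offset. For the mesenchymal markers these were 1 and 2, or 0 and 1 with the offset. Of 6 tested thyroid lineage markers 1 was higher and 1 lower, or 0 and 0 with the offset. Without the offset, the shares of all tested genes were 18.6% and 21.4%, and 19.6% and 23.1% in SS against SS+NAC. The part of these markers in the results was not tested. Markers of leukocytes and endothelium (PTPRC, CD3E, CD14 and PECAM1) had group means between 0 and 1.99 CPM.

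Promoter sequence was searched in the RefSeq windows of GRCh38.p14, which run from 250 bases before to 50 bases after each annotated start. All 10 genes had a window, and together they had 16. The sequences below are shown because they hold the letters of the C/EBP-ATF response element (CARE), the element that ATF4 and its partners are known to bind, or of a cAMP response element. The core of the CARE was searched as TGATGNAA on both strands. It was found in 2 of the 10 genes, ASNS and CHAC1, and in 4.46% of all genes with a window (3.62% of 35116 windows). Of the 15945 windows of tested genes, 2.11% held it. Both matches are printed 5′ to 3′ on the strand of the gene with the match in capitals, and in CHAC1 the element is read on the opposite strand.
ASNS: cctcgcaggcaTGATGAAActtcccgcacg
CHAC1: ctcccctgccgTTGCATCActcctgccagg
The ASNS stretch lies at chr7:97872458-97872487 on the minus strand, with the match at bases -68 to -61 from the RefSeq start, which is counted as 0. The CHAC1 stretch lies at chr15:40953251-40953280 on the plus strand, with the match at bases -209 to -202. GENCODE release 29 places exons of 3 further ASNS transcripts and of 2 CHAC1 transcripts over these matches, in both cases outside the coding sequence.

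The core of the cAMP response element, TGACGT, was found in 9.64% of all genes with a window and in 1 of the 10 genes, PPP1R15A. The bases from -250 to -30 of that gene, chr19:48872171-48872391 on the plus strand, lie before its annotated exons and are printed with the matches on either strand in capitals.
PPP1R15A: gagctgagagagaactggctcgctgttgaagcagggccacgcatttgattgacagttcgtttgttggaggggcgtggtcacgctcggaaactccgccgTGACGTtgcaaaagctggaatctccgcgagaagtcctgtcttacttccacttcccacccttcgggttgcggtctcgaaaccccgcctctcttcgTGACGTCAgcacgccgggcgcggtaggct
The second run of capitals is a pair of matches on opposite strands that overlap. The core of the antioxidant response element, TGACNNNGC, was found in 16.1% of all genes with a window and in 4 of the 10 genes, CEBPB, PPP1R15A, TRIB3 and VLDLR. In PPP1R15A the match that starts at -152 overlaps a TGACGT match. A pattern of the ER stress response element, CCAAT and CCACG with 9 bases between them, was found in 0.0916% of genes with a window and in none of the 10 genes. These matches are letters in a window and not binding sites, and genes without a match may hold the element elsewhere.

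**Figure D1:**
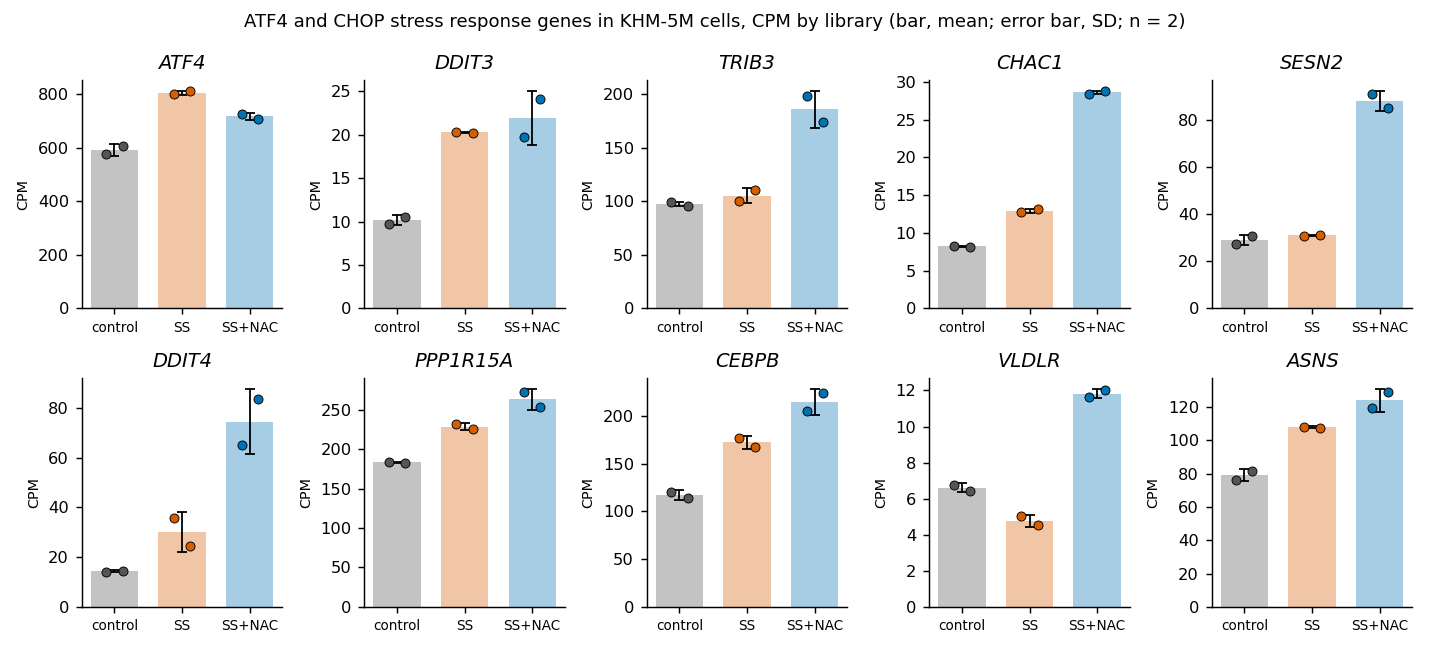
Level of the 10 genes in CPM in each library (points), with the mean (bar) and SD (error bar) of the 2 libraries of the control, SS and SS+NAC groups, each panel on its own axis from 0. In SS+NAC both libraries of every gene lie above both control libraries, and in SS TRIB3 and SESN2 lie close to control while VLDLR lies below it.

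Among the transcription factors, ATF4 had the highest level of the 10 genes in every library. ATF4 lies on chromosome 22 from 39519695 to 39522685 (GRCh38, plus strand). It had 577 and 608 CPM in the control libraries, 801 and 812 CPM in the SS libraries, and 728 and 710 CPM in the SS+NAC libraries. In these TMM-scaled values both SS libraries were the highest, and no groups overlapped. The log2 fold change was 0.44 ± 0.0753 (SE) for SS against control, which passed the threshold of an adjusted p of at most 0.05, and 0.28 ± 0.0753 for SS+NAC against control, which did not. When length was offset, the first value was 0.12 ± 0.0632 and no longer passed, and SS against SS+NAC turned from 0.17 to -0.14. TPM values are counts divided by transcript length and then scaled to a common total in each library, without the TMM factors. In TPM the order of SS and SS+NAC was the other way round, with 955 and 882 TPM in SS and 1009 and 1052 TPM in SS+NAC. The genome holds 4 annotated pseudogenes of ATF4, and the estimated counts could divide reads between such copies.

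DDIT3, which encodes the pro-apoptotic factor CHOP, is the shortest of the 10 transcripts, with an effective length of 1001 bases. The gene lies on chromosome 12 from 57516588 to 57521737 on the minus strand. Its level was 9.73 and 10.54 CPM in control, 20.3 and 20.2 CPM in SS, and 19.7 and 24.1 CPM in SS+NAC. Both treated groups were about the same distance above control and overlapped each other. The fold change was 1.99 for SS and 2.16 for SS+NAC, both against control. For SS against control the length offset gave a log2 fold change of 0.57 ± 0.133 in place of 0.996 ± 0.121, and that for SS against SS+NAC moved from -0.11 to -0.55 and passed the threshold. DDIT3 shares 355 exonic bases with MARS on the opposite strand, and since the use of strand in counting is not given in the sources used here, reads of the pair cannot be told apart there.

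CEBPB encodes C/EBP beta, a partner of both ATF4 and CHOP, and is a single-exon gene on chromosome 20 from 50190734 to 50192689. It had 121 and 114 CPM in control, 177 and 168 CPM in SS, and 205 and 224 CPM in SS+NAC. The 3 groups stood apart in the order control, SS, SS+NAC. Against control, the log2 fold change was 0.56 ± 0.0790 for SS and 0.88 ± 0.0790 for SS+NAC, and with the length offset the first was 0.40 ± 0.0781. SS against SS+NAC was -0.32 ± 0.0778, which did not pass without SS replicate 2. The antisense gene CEBPB-AS1 covers 231 of its exonic bases.

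Of the feedback genes, PPP1R15A encodes GADD34, the subunit that brings protein phosphatase 1 to phosphorylated eIF2 and so ends the response. It lies on chromosome 19 from 48872392 to 48876057 and had 184 and 183 CPM in control, 232 and 226 CPM in SS, and 273 and 254 CPM in SS+NAC. In CPM its groups stood apart in the same order as those of CEBPB, but by less. In TPM its SS libraries (165 and 146) overlapped the control libraries (153 and 149). Its log2 fold change was 0.32 ± 0.0733 for SS and 0.52 ± 0.0732 for SS+NAC against control. The SS value did not pass with the length offset (0.22 ± 0.0660) or without control replicate 1. SS against SS+NAC was -0.20 ± 0.0727, a call that was lost under 12 of the 14 alternatives tried.

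TRIB3 encodes a pseudokinase that is induced by ATF4 and CHOP and restrains both them and the kinase AKT. It lies on chromosome 20 from 362835 to 397559. TRIB3 had 99.3 and 96.2 CPM in control, 100.3 and 110.6 CPM in SS, and 199 and 174 CPM in SS+NAC. The SS libraries lay barely above the control libraries, and both SS+NAC libraries lay far above all others. For SS against control its log2 fold change was 0.11 ± 0.0875, which did not pass and was -0.03 with the length offset, and 0.93 ± 0.0871 for SS+NAC against control. SS was lower than SS+NAC by a log2 fold change of -0.82 ± 0.0865.

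Of the metabolic targets, CHAC1 encodes an enzyme that breaks down glutathione, and its promoter holds the CARE match printed above. It lies on chromosome 15 from 40952962 to 40956519. CHAC1 had 8.28 and 8.19 CPM in control, 12.8 and 13.2 CPM in SS, and 28.4 and 28.8 CPM in SS+NAC. The replicates were nearly equal in every group, and SS stood between the others. The fold change was 1.57 for SS and 3.47 for SS+NAC against control. On the log2 scale the SS value was 0.65 ± 0.103, or 0.38 ± 0.10 with the length offset, and SS against SS+NAC was -1.14 ± 0.0906. With the offset and a replicate block together the SS value was also 0.38, but did not pass.

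ASNS encodes asparagine synthetase, the gene in whose promoter the response element was classically studied. It lies on chromosome 7 from 97852118 to 97872542 on the minus strand. It had 76.5 and 81.8 CPM in control, 108.3 and 107.7 CPM in SS, and 119 and 129 CPM in SS+NAC. Both treated groups were above control, and SS was slightly below SS+NAC without overlap. The log2 fold change against control was 0.45 ± 0.0762 for SS and 0.65 ± 0.0760 for SS+NAC. The SS value with the length offset was 0.26 ± 0.0741 and did not pass, while SS against SS+NAC moved from -0.20 to -0.37 and passed. ASNS has 4 annotated pseudogenes and shares 1985 exonic bases with AC079781.5 on the same strand.

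Both inhibitors of the growth kinase complex mTORC1 were far higher in SS+NAC than in the other groups. SESN2 encodes Sestrin 2, a leucine sensor that inhibits mTORC1, and lies on chromosome 1 from 28259527 to 28282491. SESN2 had 27.5 and 30.6 CPM in control, 30.9 and 31.2 CPM in SS, and 91.3 and 85.2 CPM in SS+NAC. The SS libraries lay barely above the higher control library, and SS+NAC was apart from both groups. The log2 fold change was 0.10 ± 0.0861 for SS against control, which did not pass with or without the length offset, and 1.60 ± 0.0829 for SS+NAC against control. SS against SS+NAC was -1.51 ± 0.0817, the lowest of the 10 genes in the fit of all libraries without the length offset. With the offset it was -1.39, and DDIT4 (-1.53) and CHAC1 (-1.40) were lower. DDIT4 was also lower without SS replicate 1 (-1.62 against -1.50 for SESN2) and without SS+NAC replicate 1 (-1.48 against -1.46).

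DDIT4 encodes REDD1, which inhibits mTORC1 through the TSC complex. The gene lies on chromosome 10 from 72273920 to 72276036. DDIT4 had 14.1 and 14.5 CPM in control, 35.6 and 24.3 CPM in SS, and 65.2 and 83.7 CPM in SS+NAC. The groups did not overlap, but relative to their mean the replicates of both treated groups differed more than those of the other genes. The fold change of 5.21 for SS+NAC against control was the highest of the 10 genes, with a log2 value of 2.38 ± 0.174, and that for SS against control was 2.09 (log2, 1.07 ± 0.180). The latter was 0.83 ± 0.198 on the log2 scale with the length offset. The antisense gene DDIT4-AS1 shares 847 exonic bases with DDIT4.

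VLDLR encodes the very low density lipoprotein receptor, a lipid uptake receptor that ATF4 is known to induce under stress. It lies on chromosome 9 from 2621834 to 2660053 and is the longest transcript of the 10, with an effective length of 4469 bases. It had 6.78 and 6.42 CPM in control, 5.01 and 4.52 CPM in SS, and 11.6 and 12 CPM in SS+NAC. VLDLR was the only one of the 10 genes with both SS libraries below both control libraries in CPM. The log2 fold change of -0.47 ± 0.140 for SS against control passed the threshold, but with the length offset it was -0.24 ± 0.134 and did not, nor did it without control replicate 1, control replicate 2 or SS replicate 2, or with the DESeq2 Wald test. SS+NAC against control was 0.84 ± 0.126 and SS against SS+NAC was -1.31 ± 0.129. VLDLR-AS1 shares 738 exonic bases with the gene on the opposite strand.

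**Figure D2:**
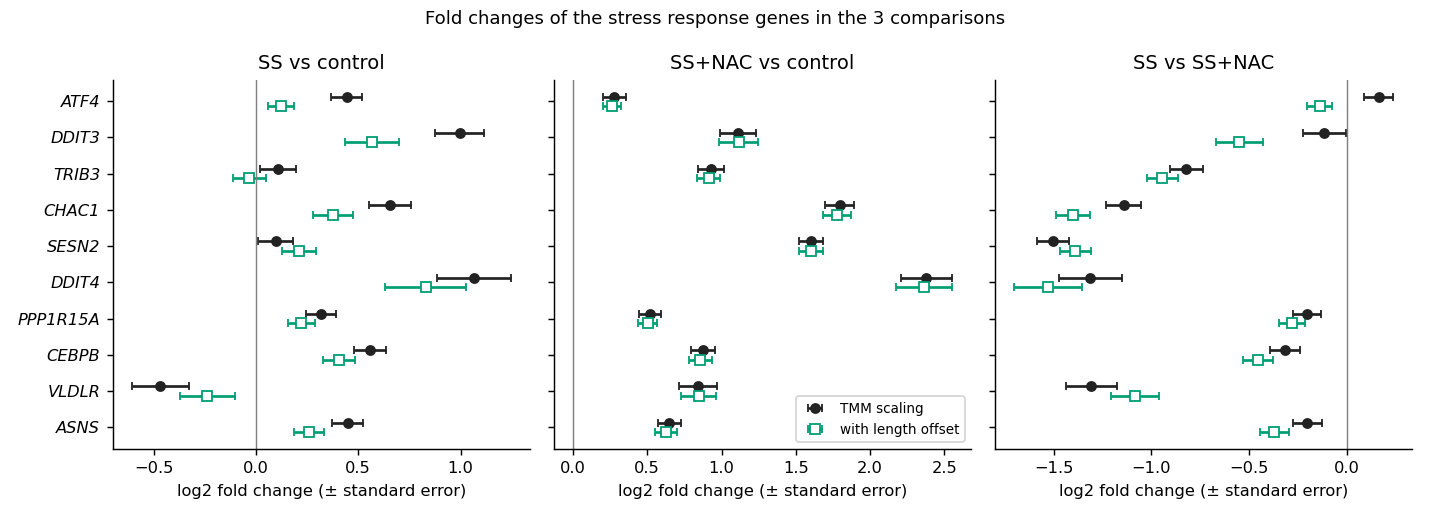
Log2 fold change of the 10 genes with its standard error in the comparisons SS against control, SS+NAC against control and SS against SS+NAC, from the fit with TMM scaling (filled circles) and from the fit with a length offset (open squares). The offset moves the values of the comparisons that hold the SS libraries, for example DDIT3 from 0.996 to 0.57, and hardly moves those of SS+NAC against control.

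Set side by side as a description, the 10 genes had these counts. In SS against control, 7 of the 10 passed the threshold as higher (18.6% of all tested genes did) and 1 as lower (21.4%). With the length offset these were 4 higher (4.32% of tested genes) and 0 lower (5.03%), namely DDIT3, CHAC1, DDIT4 and CEBPB. In TMM-scaled CPM, 9 genes had both SS libraries above both control libraries, as had 36.3% of tested genes. VLDLR had both below, as had 36.9%. The median log2 fold change of the 10 was 0.45, and 0.24 with the offset, where the medians of all tested genes were 0.003 and 0.009.

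In SS+NAC against control, 9 of the 10 passed as higher (1.36% of tested genes) and 0 as lower (0.657%). The exception was ATF4, which passed with the DESeq2 Wald test. PPP1R15A did not pass without control replicate 1 or without control replicate 2, and VLDLR did not without control replicate 2. The length offset left the 10 genes at 9 higher and 0 lower, with 1.35% and 0.664% of tested genes. In all 10 genes both SS+NAC libraries were above both control libraries, which held for 24% of tested genes. The median was 0.90, against -0.002 for all tested genes. By the log2 fold change with its sign, the genes stood between the 86.0th percentile of all tested genes, ATF4, and the 99.9th, DDIT4. Since the genes were selected on these libraries, the counts are not evidence about the pathway.

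In SS against SS+NAC, 0 of the 10 passed as higher (19.6% of tested genes) and 7 as lower (23.1%), with ATF4, DDIT3 and ASNS outside. The DESeq2 Wald test called 1 higher, ATF4 at 0.19, and 6 lower. With the offset 0 passed as higher (7.07%) and 9 as lower (7.32%), and ATF4 was again outside. In 8 genes both SS libraries were below both SS+NAC libraries in CPM, which held for 38.1% of tested genes, while DDIT3 overlapped and ATF4 was above. The median was -0.57, and -0.75 with the offset. The comparisons share libraries, so that the values of a gene in them are not independent of each other.

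**Figure D3:**
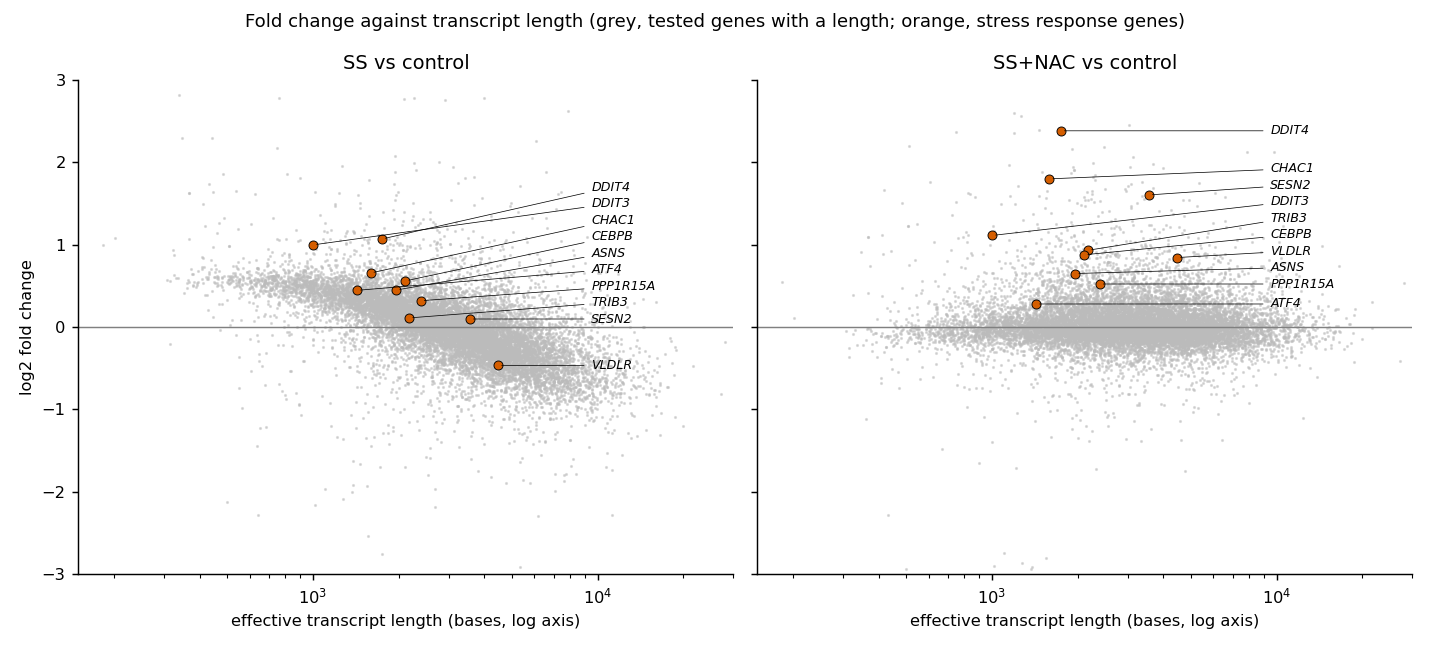
Log2 fold change of the tested genes that have a length (grey) and of the 10 named genes (orange) against effective transcript length in bases on a log axis, for SS against control (left) and SS+NAC against control (right). The cloud falls with length on the left, where VLDLR, the longest of the 10, is lowest, and is flat on the right, where all 10 genes lie above 0 (28 grey points on the left and 15 on the right fall outside the axes).

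Levels of different genes were compared in TPM. In control the order was ATF4 (819 TPM), PPP1R15A (151 TPM), CEBPB (109 TPM), TRIB3 (87.3 TPM), ASNS (78.2 TPM), DDIT3 (19.9 TPM), DDIT4 (16.1 TPM), SESN2 (16.1 TPM), CHAC1 (9.60 TPM) and VLDLR (2.89 TPM). Only DDIT4 and SESN2 overlapped among neighbours in this order. In SS, ASNS (92.1 TPM) stood above TRIB3 (79.5 TPM), and DDIT3 and DDIT4 overlapped. In SS+NAC, DDIT4 reached 87.8 TPM and SESN2 50.8 TPM, PPP1R15A overlapped CEBPB, and SESN2 overlapped DDIT3. ATF4 held the largest share of the summed level in every library. Without ATF4 the other genes summed to 496 and 485 TPM in control, 583 and 517 TPM in SS, and 924 and 1011 TPM in SS+NAC, so that the groups did not overlap. On this scale TRIB3 was at 79.0 and 79.9 TPM in SS and thus below its control values of 89.1 and 85.4 TPM, and SESN2 was at 15.0 and 13.6 TPM in SS against 15.3 and 16.8 TPM in control. The direction of TRIB3 and SESN2 in SS therefore depended on the scale. This shift was not particular to them, since TPM placed SS lower relative to control than CPM did for all 10 genes. From control to SS, the mean of ATF4 moved from 593 to 806 on the CPM scale but from 819 to 919 in TPM. The mean of VLDLR moved from 6.60 to 4.77 and from 2.89 to 1.77 on these scales. The TPM sums of the SS libraries hold the same shift, and its cause was not tested.

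A further 97 genes of the response, in 5 lists, were examined in the same fit. The lists here and below were chosen with earlier results of these data known. Most genes named from them were named for their large change in SS against control. Their counts and adjusted p-values are therefore a description. Of the 97 genes, 95 were tested with edgeR's quasi-likelihood test and Benjamini-Hochberg adjustment over all tested genes. In SS against control 28 were called higher and 16 lower (18.6% and 21.4% of all tested genes), but with the length offset 10 were higher and 0 lower (4.32% and 5.03%). The total of 44 also fell to 19 without control replicate 1, to 26 without control replicate 2 and to 20 without SS replicate 2, while the calls over all tested genes fell from 5609 to 3118, 3628 and 3164. In SS+NAC against control 22 were higher and 1 lower (1.36% and 0.657%), in all 23, which became 10 without control replicate 1 and 14 without control replicate 2, while the calls over all tested genes fell from 282 to 98 and 99. Without SS+NAC replicate 1 the total was 30, and the calls over all tested genes rose from 282 to 1086, of which 559 were higher and 527 lower. In SS against SS+NAC 14 were higher and 38 lower (19.6% and 23.1%), or 5 and 27 with the offset (7.07% and 7.32%), and the total of 52 was 33 without SS replicate 2, where the calls over all tested genes fell from 5985 to 3250. The same shares of all tested genes apply to the counts of each list. The medians of the 95 genes were 0.10, 0.17 and -0.13.

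The list of eIF2 kinases and factors, which also holds their regulators and the phosphatase subunits, had log2 fold changes between -0.59 and 0.48 in SS against control and between -0.34 and 0.18 in SS+NAC against control. Of 21 genes, 6 were higher and 4 lower in SS against control (18.6% and 21.4% of all tested genes), or 1 and 0 with the length offset (4.32% and 5.03%). There were 0 higher and 1 lower in SS+NAC against control, or 0 and 0 with the offset, and 6 higher and 4 lower in SS against SS+NAC, or 2 and 1 with the offset. In SS against control the called genes with the largest changes were DNAJC3, an inhibitor of the eIF2 kinase PERK (-0.59 ± 0.0919, adjusted p = 0.000853), EIF2AK4, the kinase GCN2 that senses uncharged tRNA (-0.51 ± 0.0747, adjusted p = 0.000647), and PPP1CA, a catalytic subunit of protein phosphatase 1 (0.48 ± 0.101, adjusted p = 0.00381). With the length offset these were -0.25, -0.17 and 0.17, and none passed. EIF2AK4 was also the gene called lower in SS+NAC against control, at -0.34 ± 0.0743 (edgeR adjusted p = 0.0482), a call that was lost with the length offset (adjusted p = 0.063) and under most other alternatives, including no filter on low counts, the compared libraries only and leaving out either control replicate, either SS replicate or SS+NAC replicate 2.

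Of the 5 lists, that of the basic leucine zipper partners of ATF4 held the largest increases in SS. Of 14 tested genes, 7 were higher and 1 lower in SS against control (18.6% and 21.4% of all tested genes), and 6 and 0 with the length offset (4.32% and 5.03%). There were 5 higher and 0 lower in SS+NAC against control, and in SS against SS+NAC 4 were higher and 5 lower, or 1 and 4 with the offset. CEBPD, which encodes C/EBP delta, rose from a mean of 37.8 CPM in control to means of 116 and 124 CPM in SS and SS+NAC. The replicates lay far apart, at 145 and 87.6 CPM in SS and 83.4 and 164 CPM in SS+NAC. Its log2 fold change in SS was 1.63 ± 0.305 (adjusted p = 0.00216), or 1.27 with the offset. ATF3, a repressor that ATF4 and CHOP induce, rose from 6.95 CPM in control to 17.6 and 21.2 CPM in SS and SS+NAC, by 1.35 ± 0.164 in SS (adjusted p = 0.00029). FOS, an immediate early gene, rose from 4.43 CPM to 9.79 CPM and 13.7 CPM, by 1.16 ± 0.178 in SS (adjusted p = 0.000833). For CEBPD and ATF3 the difference between SS and SS+NAC did not pass (-0.08 ± 0.285 and -0.26 ± 0.143), whereas FOS was lower in SS (-0.48 ± 0.153, edgeR adjusted p = 0.0273).

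Genes of amino acid synthesis and transport held the largest difference between SS and SS+NAC among the 5 lists, that of SLC7A11, although with the length offset that of INHBE was larger (-2.39 against -2.19). Of 18 genes, 5 were higher and 4 lower in SS against control (18.6% and 21.4% of all tested genes), and 0 and 0 with the length offset. SS+NAC against control had 7 higher and 0 lower. In SS against SS+NAC 2 were higher and 10 lower, and 0 and 11 with the offset. SLC7A11, the cystine importer xCT, had 34.4, 23.0 and 151 CPM in control, SS and SS+NAC. It was higher in SS+NAC than in control by 2.13 ± 0.111 (adjusted p = 2.36e-06) and lower in SS than in SS+NAC by -2.71 ± 0.115 (adjusted p = 2.7e-06). Its fall in SS against control, -0.58 ± 0.118, was -0.04 with the length offset. SLC7A1, a carrier of cationic amino acids, likewise went from -0.55 ± 0.0886 to -0.09 with the offset in SS against control. SLC3A2, the partner chain of xCT, was higher in SS+NAC by 0.54 ± 0.0905 (edgeR adjusted p = 0.0139) and in SS by 0.44 ± 0.0905, or 0.25 with the offset, which did not pass. CTH, an enzyme of cysteine synthesis that was picked after its values were seen, had 3.51, 3.70 and 11.3 CPM in these groups (1.68 ± 0.141 for SS+NAC against control, edgeR adjusted p = 0.000134).

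The aminoacyl-tRNA synthetases, which charge tRNA with amino acids, had log2 fold changes between -0.22 (EPRS) and 0.35 (SARS) in SS against control. Of the 13 genes of the list, which also holds the tRNA exporter XPOT, 2 were higher and 3 lower in SS against control (18.6% and 21.4% of all tested genes), 0 and 0 in SS+NAC against control, and 0 and 2 in SS against SS+NAC, and with the length offset none passed in any comparison. The 13 log2 fold changes ran from -0.05 to 0.24 in SS+NAC against control. The called genes with the largest changes in SS were XPOT (-0.35 ± 0.0812, edgeR adjusted p = 0.00629), SARS (0.35 ± 0.0799, adjusted p = 0.0064) and MARS (0.23 ± 0.0719, adjusted p = 0.027). With the offset they were 0.05, 0.15 and 0.21.

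Of the 29 tested genes among the other targets of ATF4 and CHOP, 8 were higher and 4 lower in SS against control (18.6% and 21.4% of all tested genes), or 3 and 0 with the length offset. SS+NAC against control had 10 higher and 0 lower (1.36% and 0.657%), and in SS against SS+NAC 2 were higher and 17 lower, or 2 and 11 with the offset. CCPG1, a receptor of ER autophagy, had a log2 fold change of -0.74 ± 0.171 in SS against control (adjusted p = 0.00624), BBC3, the pro-apoptotic protein PUMA, of 0.67 ± 0.183 (adjusted p = 0.0147), and EIF4EBP1, an inhibitor of translation initiation, of 0.52 ± 0.113 (edgeR adjusted p = 0.00471). None of the 3 passed with the offset, where they were -0.46, 0.43 and 0.04. In SS+NAC against control the genes INHBE, ADM2 and STC2, picked after their values were seen, were higher by 2.19 ± 0.186, 1.23 ± 0.0794 and 0.96 ± 0.0756, with edgeR adjusted p-values of 0.00014, 1.3e-05 and 7.51e-05. All 3 encode secreted proteins. In SS against control the value of INHBE was -0.14, or -0.22 with the offset, and did not pass in either fit. ADM2 was called lower at -0.32, but was at -0.14 with the offset and did not pass. STC2 was at 0.19 and did not pass, but was called higher with the offset at 0.51 (edgeR adjusted p = 0.00164).

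**Figure D4:**
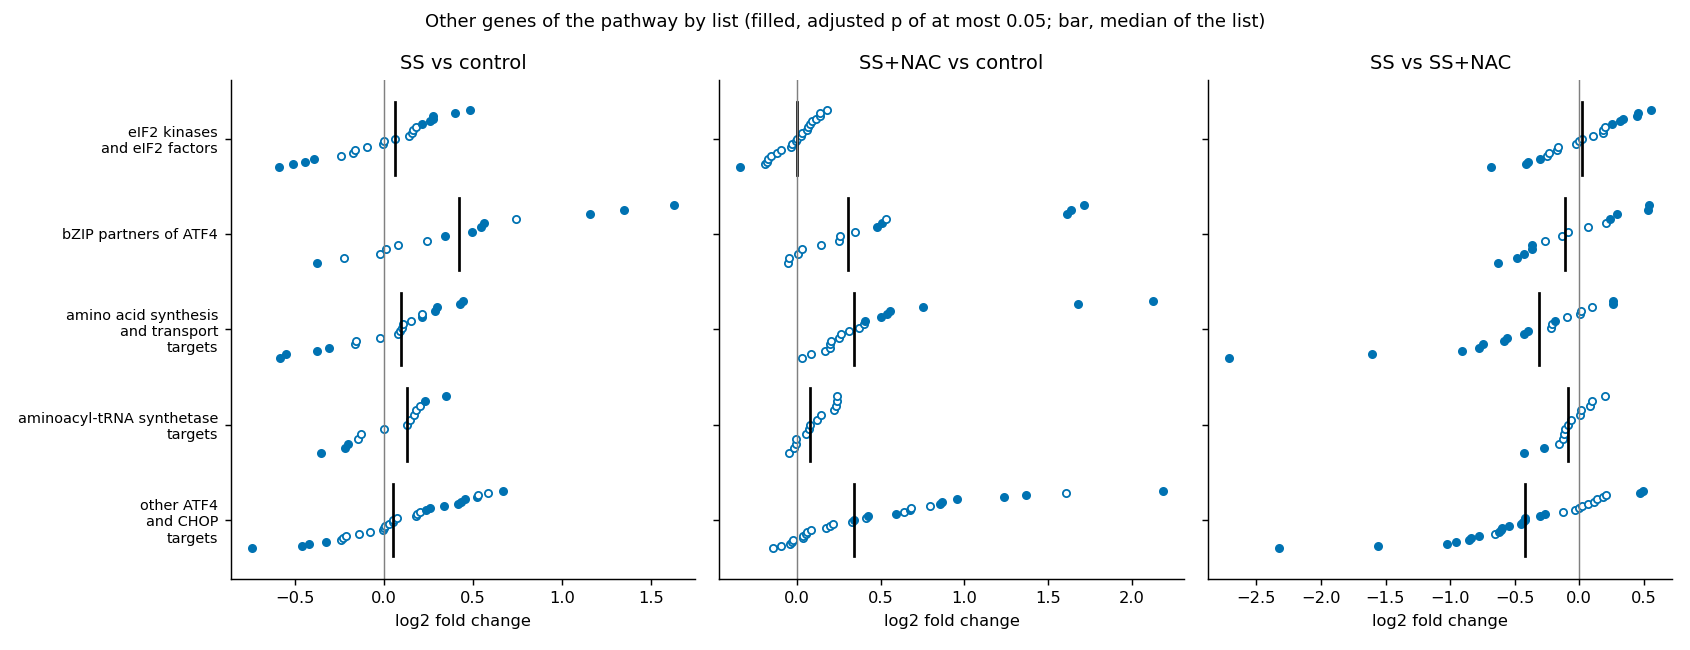
Log2 fold change of the tested genes of the 5 other lists in the 3 comparisons without a length offset (points, filled where the adjusted p was at most 0.05), with the median of each list (bar). In SS+NAC against control the called genes lie to the right of 0 apart from EIF2AK4, and SLC7A11 at 2.13 and INHBE at 2.19 lie furthest out.

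Genes of the other arms of the ER stress response, which run through ATF6 and IRE1, were read for comparison. Of 20 genes, 4 were higher and 7 lower in SS against control (18.6% and 21.4% of all tested genes), or 0 and 2 with the length offset. In SS+NAC against control 2 were higher and 0 lower, namely XBP1 (0.75 ± 0.0725, edgeR adjusted p = 0.000347) and the co-chaperone DNAJB9 (0.79 ± 0.148, adjusted p = 0.0233), which, like HSPA5, was named after its values were seen. In SS against SS+NAC 3 were higher and 11 lower, or 0 and 5 with the offset. SEL1L, a scaffold of ER-associated degradation, fell in SS by 0.77 on the log2 scale and HSP90B1, an ER chaperone, by 0.47, with edgeR adjusted p-values of 0.000162 and 0.00249. Both passed with the offset as well, at -0.34 and -0.47. HSPA5, the main ER chaperone BiP, had 854, 862 and 969 CPM in control, SS and SS+NAC, and passed in no comparison.

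Relatives of the 10 genes were compared with them by family. Of 15 tested relatives, 1 was higher and 2 were lower in SS against control (18.6% and 21.4% of all tested genes), or 2 and 0 with the length offset (4.32% and 5.03%). There were 2 higher and 0 lower in SS+NAC against control (1.36% and 0.657%), and 1 higher and 3 lower in SS against SS+NAC, or 1 and 1 with the offset. LRP8, the receptor most like VLDLR, followed the same order of groups as VLDLR, with 58.4 CPM in control against 41.9 CPM in SS, and with 91.6 CPM in SS+NAC. It was higher in SS+NAC than in control by 0.65 ± 0.0760 (adjusted p = 0.00154), lower in SS than in SS+NAC by -1.13 ± 0.0772 (adjusted p = 3.3e-05), and in SS against control at -0.48 ± 0.0785, or -0.16 with the length offset, which did not pass. The larger relative LRP1 was called lower in SS against control (-0.35 ± 0.0796) but higher with the offset (0.31). Among the C/EBP genes CEBPD was the other relative higher in SS+NAC, while CEBPG (0.35) and CEBPA (0.53) did not pass in SS+NAC against control. CEBPG was lower in SS than in SS+NAC (-0.37 ± 0.0861), and ATF5 was higher (0.29 ± 0.0946), with edgeR adjusted p-values of 0.00633 and 0.0307, and neither passed with the offset.

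The relatives of the growth inhibitors and feedback genes did not pass in SS+NAC against control. SESN1 had 3.31, 3.18 and 2.88 CPM in control, SS and SS+NAC, and SESN3 had 0.693, 0.465 and 0.332 CPM, while SESN2 was at 88.2 CPM in SS+NAC. DDIT4L had 1.02, 0.915 and 1.29 CPM. TRIB1 had 22.7, 21.4 and 27.3 CPM and TRIB2 16.7, 13.7 and 13.3 CPM. CHAC2, which like CHAC1 acts on glutathione, had 9.06, 10.2 and 10.2 CPM. PPP1R15B, the constitutive counterpart of PPP1R15A, had 55.3, 51.8 and 58.0 CPM, and ASNSD1 had 48.9, 46.9 and 44.9 CPM. In these 8 relatives no comparison passed the threshold.

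The genes whose pattern over the 6 libraries was most like the median pattern of the 10 were found by the root mean square distance between log2 CPM values that were centred on each gene's own mean. AREG, which encodes the growth factor amphiregulin, was nearest with a distance of 0.0561, at 1.28, 1.78 and 2.43 CPM in control, SS and SS+NAC. SQSTM1, the autophagy receptor p62, followed with 0.0604, at 440, 586 and 801 CPM. HMOX1, heme oxygenase 1, had a distance of 0.0702 and XBP1 of 0.0940. SQSTM1 and HMOX1 also stood in the list of other ATF4 and CHOP targets. Of the 10 genes themselves, CEBPB was nearest to the median pattern (0.0945) and DDIT4 farthest (0.606).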

How the data were processed

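The expected counts, TPM and FPKM values were made by the authors and deposited in 1 table of 17687 genes. According to the methods and the submitters' processing notes, reads were filtered, mapped with HISAT2 2.0.4 and Bowtie2 2.2.5, and gene levels were estimated with RSEM 1.2.12. The deposited expected counts are not normalized, and 44.8% of them were not whole numbers. The FPKM values of the authors were used only to derive effective transcript length. The TPM values of the authors were used to order the genes by level, to sum them and to set the groups' levels beside those in CPM. The 9 columns of group means and the 9 columns of the authors' own comparisons were not used.

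Expected counts were rounded, and genes were kept with filterByExpr, scaled by TMM and fitted with the quasi-likelihood test of edgeR 4.0.16 (R 4.3.3) over all 6 libraries without covariates. Benjamini-Hochberg adjustment covered all 14005 genes. The length offset was a lowess fit (span 0.3) of each library's deviation from the gene mean on log length. The fits were tested on simulated data. Alternatives were the length offset, a replicate block, both together, DESeq2 1.42.0 (size factors, Wald test), other filters, Bonferroni adjustment, fits of the compared libraries alone and leaving out each library.

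The 10 genes and all lists were chosen with earlier results of these data known. Genes named from a list were the 3 called genes with the largest change in SS against control at a mean of at least 1 CPM in either group. The rule also named the family relatives and the 5 genes nearest in pattern, and results for some of these genes are not reported here. Precision is limited by 2 libraries per group, and a group with at most 3 counts in each library was treated as at the floor. Replicate numbers were not taken to pair libraries.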

Additional observations from a re-analysis of the deposited data

How the results depend on the processing

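With the length offset, the number of the 10 genes called in SS against control fell from 8 to 4, and to 3 with the offset and a replicate block together, where all tested genes had 5609, 1310 and 840 calls. Their median log2 fold change went from 0.45 to 0.24 in both fits. In SS against SS+NAC the median of -0.57 became -0.75 with the offset and -0.74 with the offset and the block. The other pathway genes called went from 44 to 10 and 9 in SS against control, and from 52 to 32 and 28 in SS against SS+NAC, with the offset and with the offset and the block, where all tested genes went from 5985 to 2015 and 1342 in the latter comparison. Bonferroni adjustment, a stricter rule by construction, left 0 of the 10 genes and 0 other genes in SS against control, 6 of the 10 genes and 9 other genes in SS+NAC against control, and 4 of the 10 genes and 6 other genes in SS against SS+NAC, beside 220, 40 and 191 of all tested genes in the 3 comparisons. Leaving out 1 library gave 6 to 8, 7 to 9 and 5 to 7 of the 10 genes and 19 to 52, 10 to 30 and 33 to 56 other genes in SS against control, SS+NAC against control and SS against SS+NAC, beside 3118 to 6579, 98 to 1086 and 3250 to 6339 of all tested genes. No value of the 10 genes that was called with TMM scaling changed direction under the alternatives run, whereas LRP1, one of their relatives, went from -0.35 to 0.31 in SS against control with the offset, and the cause was not tested.

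The replicate numbers only name the libraries. The replicate differences of control and SS had a correlation of 0.113, those of control and SS+NAC of -0.105 and those of SS and SS+NAC of -0.175. With a replicate block 8, 9 and 6 of the 10 genes and 35, 20 and 46 other genes were called in the 3 comparisons, beside 4857, 211 and 5136 of all tested genes. The DESeq2 Wald test called 7, 10 and 7 of the 10 genes (4622, 311 and 4866 of all genes), and in SS against SS+NAC these were 1 higher (ATF4) and 6 lower, without PPP1R15A. Depth limits VLDLR most, at 99 to 289 expected counts per library.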
